A study of Arabidopsis thaliana with 12 samples.

Results

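The trb123 triple mutant of Arabidopsis thaliana was compared with wild type (WT, accession Col-0) in whole seedlings, across all genes whose transcript level was listed for both groups. Of 21271 genes in the deposited table, 21036 were listed for both groups, and 922 of these were missing from at least 1 table of the trb45 mutants. The comparison rests on 6 of the 12 libraries of the series, 3 of WT and 3 of trb123, and the 18629 genes with at least 1 FPKM in at least 3 of the 6 libraries were tested. The trb123 label names a combined mutant of TRB1, TRB2 and TRB3; no allele is given in the labels. WT and trb123 seedlings were grown alike and untreated: 2 days of cold (4 °C) in the dark, then plates of Murashige and Skoog medium with 1% sucrose at 23 °C under 16 h of light and 8 h of dark, and harvest at an age of 7 days. The trb45 label names mutants of TRB4 and TRB5 in 2 lines, numbered 1 and 2 in the labels, of which line 2 (3 libraries, same growth) serves as a second reference. The labels give neither the hour of harvest nor the number of seedlings per library, and nothing in them says that the replicates were separate cultures, so p-values measure the spread between these libraries. A seedling is a mixture of organs, so fewer cells of a type and less RNA per cell cannot be told apart in what follows.

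TRB proteins are plant-specific telomere repeat binding proteins with a Myb domain and a histone-like domain. Besides telomeric DNA they bind short telomere-like motifs (teloboxes) in promoters, many of them promoters of ribosomal protein genes and of other genes of the translation machinery. They are known to recruit Polycomb repressive complex 2, the enzyme that places the H3K27me3 mark on developmental genes, and to take part in complexes that remove active histone marks. Seedlings that lose this repression are known to express flower genes, among them floral MADS-box genes. The functions described here lie outside that gene family.

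Values are the authors' FPKM (fragments scaled by gene length and by the library's total), and a change is the difference of mean log2(FPKM + 1) between trb123 and WT, given as the difference ± its standard error (SE). A gene was called when limma's adjusted p was under 0.05, and the values of 3 libraries are given in the order of replicates 1, 2 and 3. Depths inferred from the spacing of low FPKM values were 22600000 to 24100000 fragments in the 6 libraries, and Pearson's r between replicates on the log2 scale was 0.986 to 0.996. The 3 targeted genes were lower in every library labelled trb123 than in any WT library. TRB1 stood at 9.89, 11.2 and 9.76 FPKM in WT and 0.65, 0.99 and 0.65 in trb123. TRB2 stood at 10.5, 12.3 and 13.3 FPKM in WT and 2.52, 3.12 and 2.67 in trb123, and TRB3 at 6.34, 8.65 and 7.43 FPKM in WT and 1.2, 2.01 and 1.59 in trb123. TRB4, at 11.04, 8.37 and 8.16 FPKM in WT and 8.71, 6.40 and 6.74 in trb123, was not called; with median-ratio scaling it was called lower (adjusted p = 0.0295). TRB5 was called higher by 0.27 ± 0.08, adjusted p = 0.0165, a call lost with median-ratio or quantile scaling, with the split as a term, and without replicate 3 of either group.

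Features of the libraries bear on several results. On 226 genes that separate replicate 3 of trb45 line 1 from replicates 1 and 2 of that line, the WT libraries lie with replicates 1 and 2 and the trb123 and line 2 libraries lie with replicate 3 (positions of 0.86 to 0.90 for trb123, on a scale from 0 to 1). This split of the libraries and the difference between trb123 and WT cannot be told apart within the 6 libraries. Each list described with named genes below is therefore also given from a fit of all 12 libraries with the split as a term, which rests on that single library of line 1, and against trb45 line 2, which shares the trb123 libraries and lies on the same side of the split. In addition, trb123 replicate 2 stood apart from replicates 1 and 3 on the second principal component (-22.2 against 11 and 10.1).

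In all, 12420 genes (66.7% of those tested) differed between trb123 and WT, 7176 of them higher in trb123 (38.5%) and 5244 lower (28.1%). Both called and changed at least 2-fold were 1756 genes on the higher side (9.43%) and 1179 on the lower side (6.33%). The median change over all tested genes was 0.09; with median-ratio scaling, which sets it to 0, 6167 genes were higher and 6182 lower. With so many calls, a list of genes is read here against these shares. The fit with the split as a term covers 18336 genes, of which 17.2% were higher and 11.3% lower. Against line 2, 10540 of 18303 genes (57.6%) differed, with 34.2% higher in trb123 and 23.4% lower.

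**Figure D1:**
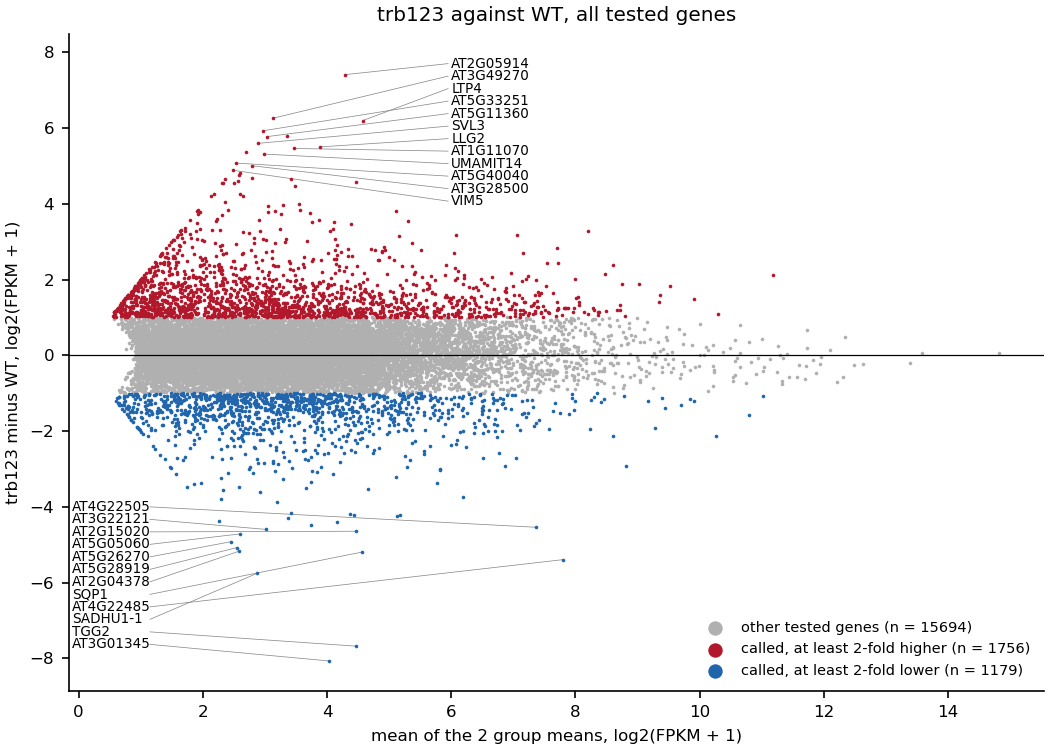
Change in trb123 against WT (vertical, difference of mean log2(FPKM + 1)) over the mean level of both groups (horizontal, log2(FPKM + 1)) for the 18629 tested genes; red and blue points are genes called and changed at least 2-fold. The labelled genes are the 12 largest rises and 12 largest falls outside the floral MADS-box genes, which lie between 4.88 and 7.41 and between -8.07 and -4.54.

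The largest rises outside the floral MADS-box genes were of genes almost silent in WT. The highest was AT2G05914, a noncoding RNA, at 0.55, 0.32 and 0.64 FPKM in WT and 243, 254 and 262 in trb123 (7.41 ± 0.09, adjusted p = 6.59e-11); it overlaps AT2G05915, and the labels do not say whether counting used the strand. LTP4, a lipid transfer protein of the cell wall, stood at 0.67, 1.55 and 4.09 FPKM in WT and 224, 165 and 229 in trb123, a change of 6.20 ± 0.33. Both were present in every trb123 library at levels that no WT library approached. The extensin-like gene AT3G49270 was listed at 0 in the WT libraries and at 81.3, 60.5 and 87.3 in the trb123 libraries. SVL3, a GPI-anchored protein related to a cell wall organiser, stood at 0.09, 0.07 and 0.04 FPKM in WT and 50.6, 47.8 and 53.3 in trb123. LLG2, a GPI-anchored partner of receptor kinases that is known from pollen tubes, stood at 1.42, 1.47 and 0.80 FPKM in WT and 101, 91.1 and 106 in trb123 (a change of 5.50 ± 0.12). UMAMIT14, an amino acid exporter known from phloem unloading and the seed coat, stood at 0.35, 0.28 and 0.16 FPKM in WT and 52.0, 43.6 and 52.2 in trb123. VIM5, of a family that helps to maintain DNA methylation, stood at 0.06, 0.04 and 0 FPKM in WT and 29.5, 28.2 and 30.8 in trb123. In none of these genes did the groups come near each other. The other rises among the 12 largest were of the pseudogene AT5G33251 (5.92), of AT5G11360 (5.77), of the hydroxyproline-rich glycoprotein gene AT1G11070 (5.46) and of the ribosomal genes AT5G40040 and AT3G28500.

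The largest falls were of genes well expressed in WT. AT3G01345, an uncharacterized gene, stood at 247, 245 and 316 FPKM in WT and was listed at 0 in every trb123 library. It was also low in trb45 libraries, with lowest values of 0.26 FPKM in line 1 and 0.46 in line 2. SADHU1-1, a transcript of a retroposon, stood at 51.0, 49.3 and 58.9 FPKM in WT and was again listed at 0. TGG2, a myrosinase, is described with the glucosinolate genes. SQP1, a squalene epoxidase-like enzyme of sterol and triterpene synthesis, stood at 132, 148 and 147 FPKM in WT and 2.55, 4.43 and 2.11 in trb123 (a change of -5.19 ± 0.17). AT4G22485, of the lipid transfer protein superfamily, stood at 1420.4, 1259.9 and 1683 FPKM in WT and 23.1, 69.2 and 22.98 in trb123. Its neighbour AT4G22505 stood at 696, 795 and 902 FPKM in WT and 17.63, 78.8 and 25.9 in trb123. In both, replicate 2 of trb123 was the highest of its group but remained far below WT. AT3G22121, another noncoding RNA, fell by 4.60 ± 0.43, a call lost with the split as a term (-0.54, adjusted p = 0.738). The remaining falls, of AT2G04378, AT5G28919, AT5G26270, AT5G05060 and AT2G15020, were between -5.17 and -4.64. Several of the largest falls share a region. SADHU1-1 and AT2G04378 lie in the first 6 Mb of chromosome 2. SQP1, TGG2, AT5G26270 and AT5G28919 lie between 5 and 11 Mb of chromosome 5. Of these, SADHU1-1, AT2G04378, AT5G26270 and AT5G28919 were at or near 0 in trb123 but at 16.0 FPKM or more in every trb45 library. The windows are described at the end, and the part of position in these falls was not tested.

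**Figure D2:**
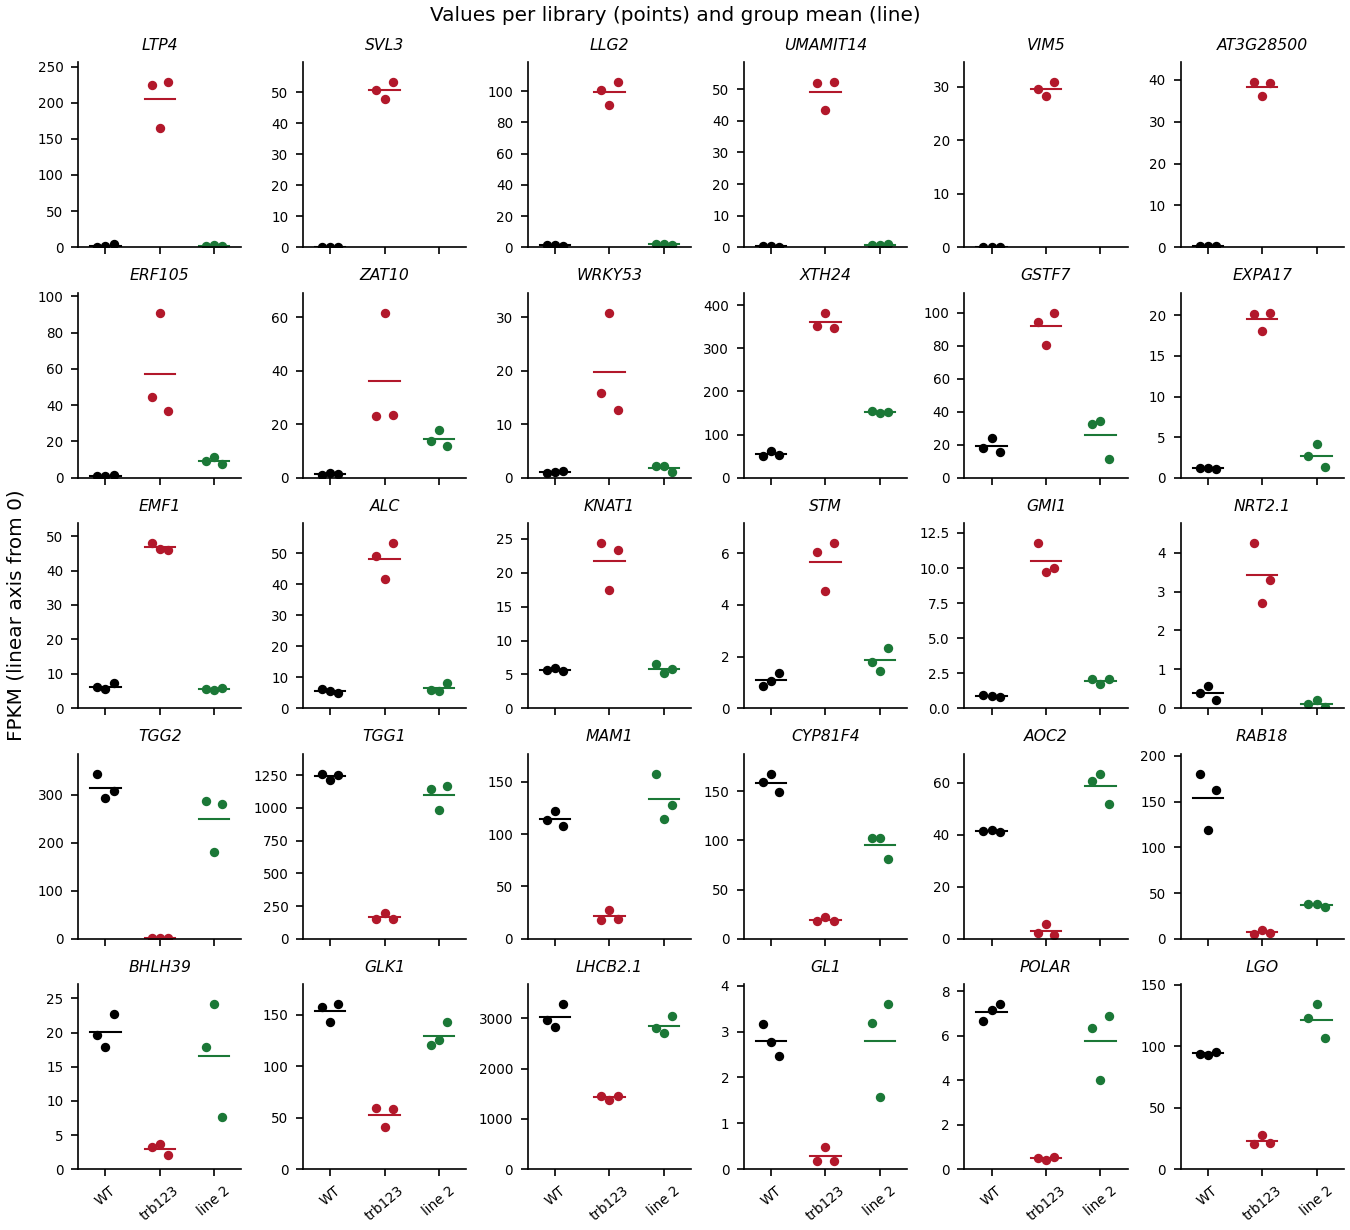
FPKM per library (points; vertical axes linear from 0, each with its own range) and group mean (line) of 30 genes named in the text, for WT, trb123 and trb45 line 2. In rows 1 to 3 the trb123 libraries lie above the WT libraries and in rows 4 and 5 below them; SVL3, VIM5 and AT3G28500 are not listed for line 2 and have no points there.

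Genes for ribosomal proteins formed the broadest rise. Ribosomal proteins are the protein part of the machine that translates mRNA, and most are encoded by several gene copies in Arabidopsis. Of 326 tested genes whose product name is a ribosomal protein with no organelle named, 250 were called higher (76.7% against 38.5% of all genes) and 33 lower, with a median change of 0.73 against 0.09. The family was chosen by product name and still holds some nuclear genes for plastid ribosomal proteins. Members named for a protein family, such as S5 or L7Ae/L30e, need not encode parts of the cytosolic ribosome. The fit with the split called 188 higher and 4 lower, and that against line 2 called 240 and 23. Their summed level was 31626 to 31974 FPKM in WT, 46061 to 48108 in trb123, 27574 to 28254 in line 1 and 26230.1 to 32401 in line 2, so the trb123 libraries lay above all others. The 2 largest rises were of acidic proteins of the ribosomal stalk, where translation factors dock. AT5G40040 stood at 0 FPKM in every WT library and 30.2, 34.9 and 33.2 in trb123 (5.07 ± 0.09, adjusted p = 5.34e-10), and AT3G28500 at 0.31, 0.19 and 0.18 FPKM in WT and 39.5, 36.2 and 39.4 in trb123 (5 ± 0.09, adjusted p = 5.34e-10). They are 2 of 9 family members that reached 1 FPKM in trb123 alone. Among genes already expressed in WT, the S19 family gene AT5G09510 stood at 33.5, 32.6 and 46.5 FPKM in WT and 144, 134 and 140.4 in trb123, a change of 1.88 ± 0.12. The L7Ae/L30e family gene AT4G12600 stood at 20.8, 19.1 and 22.99 FPKM in WT and 84.5, 76.3 and 77.6 in trb123, a change of 1.88 ± 0.08. The 2 largest falls were of AT5G02440, named 60S ribosomal protein L36 (-1.72 ± 0.12, adjusted p = 1.22e-06), and of EMB3113, a ribosomal protein S5 family gene (-1.56 ± 0.07, adjusted p = 8.18e-08); the call of EMB3113 was lost with the split as a term (-0.22, adjusted p = 0.277).

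Since TRB proteins bind teloboxes, the promoters of those 4 risen genes are shown, from 250 bases before the annotated gene start to 50 bases after it, 5′ to 3′ on the gene's strand, from the RefSeq TAIR10.1 assembly. AT5G09510 and AT4G12600 were picked as the largest rises with a telobox and at least 5 FPKM in WT, so their teloboxes are no finding. Capitals mark each telobox, AAACCCTA or its reverse complement TAGGGTTT.
AT5G40040, chr5:16030286-16030585, minus strand: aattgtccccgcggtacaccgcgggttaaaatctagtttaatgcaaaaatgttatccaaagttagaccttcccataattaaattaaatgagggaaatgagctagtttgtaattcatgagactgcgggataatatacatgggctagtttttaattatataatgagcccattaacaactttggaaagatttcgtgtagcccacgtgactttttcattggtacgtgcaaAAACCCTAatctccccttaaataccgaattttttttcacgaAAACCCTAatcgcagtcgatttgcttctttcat
AT3G28500, chr3:10681779-10682078, plus strand: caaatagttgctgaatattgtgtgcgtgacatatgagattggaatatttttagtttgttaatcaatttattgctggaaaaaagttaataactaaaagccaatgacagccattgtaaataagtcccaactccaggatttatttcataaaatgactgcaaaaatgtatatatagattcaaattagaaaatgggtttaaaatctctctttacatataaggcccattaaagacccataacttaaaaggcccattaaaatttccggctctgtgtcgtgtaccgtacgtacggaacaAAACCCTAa
AT5G09510, chr5:2956634-2956933, minus strand: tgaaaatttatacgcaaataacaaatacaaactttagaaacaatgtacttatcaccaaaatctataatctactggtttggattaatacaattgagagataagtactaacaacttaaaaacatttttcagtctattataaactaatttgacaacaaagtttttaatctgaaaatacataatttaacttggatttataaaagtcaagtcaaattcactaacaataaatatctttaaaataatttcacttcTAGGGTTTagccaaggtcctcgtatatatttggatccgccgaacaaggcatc
AT4G12600, chr4:7452946-7453245, plus strand: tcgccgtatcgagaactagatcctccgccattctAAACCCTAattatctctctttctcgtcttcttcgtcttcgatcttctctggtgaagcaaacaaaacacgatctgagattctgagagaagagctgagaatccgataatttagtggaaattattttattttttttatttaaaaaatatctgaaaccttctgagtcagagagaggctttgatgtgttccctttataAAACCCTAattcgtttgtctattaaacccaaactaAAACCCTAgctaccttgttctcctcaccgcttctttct

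AT5G40040 holds 2 teloboxes in that window, AT3G28500 and AT5G09510 1 each, and AT4G12600 3. Searched on both strands, a telobox was present in 1064 of 18537 promoters of tested genes (5.74%), and in 119 of the 326 ribosomal protein genes (36.5%). Of the ribosomal protein genes called higher, 105 of 250 held one (42.0%), and of the others 14 of 76 (18.4%). Over all functions, 11.5% of the genes called and at least 2-fold higher held a telobox, and 3.57% of those at least 2-fold lower. Outside the ribosomal family, the 945 genes with a telobox had a median change of 0.31, with 53.3% called higher and 16.4% lower, and the 17266 genes without had a median of 0.07, with 36.9% and 29.2%. A match describes letters in a window and does not show binding.

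Transcripts of the organelle genomes were also higher. Of 69 tested plastid genes 47 were called higher and none lower (limma; median change 0.88), with the split as a term 34 and none, and against line 2, 53 and none. Of 8 mitochondrial genes 7 were called higher and none lower (4 higher without trb123 replicate 1, where 6 were tested), 2 and 0 of 6 with the split as a term and 4 and 0 of 9 against line 2. Summed plastid FPKM was 2748 to 4060 in WT and 4830 to 5452 in trb123; in line 1 it was 2993 to 4758 and in line 2 3103 to 3869. Of the nuclear ribosomal RNA genes given here, those on chromosome 2 rose, and the fall of the copy on chromosome 3 was not stable. On chromosome 2, the 18S gene AT2G01010 stood at 0.96, 0.86 and 1.59 FPKM in WT and 32.98, 32.0 and 30.1 in trb123, and AT2G01020 beside it at 9.60, 5.94 and 9.82 FPKM in WT and 128, 126 and 135 in trb123. On chromosome 3, the 18S copy AT3G41768 stood at 368, 227 and 354 FPKM in WT and 209.9, 226 and 227 in trb123 (-0.48 ± 0.16, adjusted p = 0.0207); its call was lost without WT replicate 1, WT replicate 3 or trb123 replicate 1, and its sign turned with the split as a term (0.58, adjusted p = 0.214). AT2G01010 and AT3G41768 match each other over all of their annotated exon at 97% identity or more. AT2G01020 is matched in the same way by AT3G06355 and AT3G41979, whose values are not given here. The split of reads among such copies is uncertain. The libraries were made from polyA RNA, in which rRNA and plastid RNA are carried over; the part of that carry-over in these rises was not tested.

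**Figure D3:**
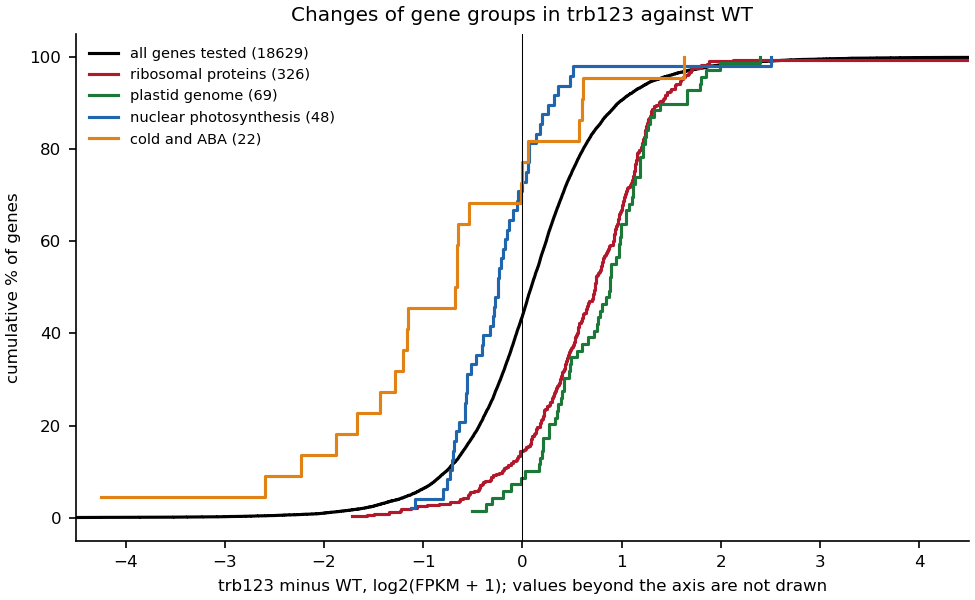
Cumulative share of genes (vertical, %) by their change in trb123 against WT (horizontal, difference of mean log2(FPKM + 1)) for all tested genes and 4 groups of genes. The ribosomal protein genes (median 0.73) and plastid-encoded genes (0.88) lie to the right of all genes (0.09), and the nuclear photosynthesis genes (-0.25) and cold and abscisic acid genes (-0.67) to the left.

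A set of rapidly induced stress genes, the transcription factors and calcium-binding proteins that plants switch on within minutes of touch, wounding or microbial signals, was higher in trb123. Of 23 genes tested 20 were called higher and none lower, 18 of them at least 2-fold (limma; median 1.57); with the split as a term 17 and none were called, and against line 2, 11 and none. ERF105, an ethylene response factor, stood at 1.06, 1.15 and 1.23 FPKM in WT and 44.2, 91.0 and 36.9 in trb123 (a change of 4.65 ± 0.26, adjusted p = 4.47e-07). ZAT10, a zinc finger repressor, stood at 0.98, 1.83 and 1.43 FPKM in WT and 23.1, 61.8 and 23.55 in trb123. WRKY53, a regulator of defence and senescence, stood at 0.90, 0.99 and 1.18 FPKM in WT and 15.9, 30.9 and 12.6 in trb123. All 3 were near 1 FPKM in WT and above 10 FPKM in every trb123 library. ERF104, a substrate of a defence kinase, stood at 4.96, 5.99 and 4.27 FPKM in WT and 36.3, 88.0 and 38.1 in trb123. In each of these 4 genes replicate 2 of trb123 was the highest library. The summed level of the 23 genes was 134 to 153 FPKM in WT, 395 and 385 in replicates 1 and 3 of trb123 and 914 in replicate 2, so the groups do not overlap with or without that library. Without trb123 replicate 2, 18 were called higher and none lower. In line 2 the sum was 225 to 325 FPKM, between WT and trb123, but in line 1 it was 402, 473 and 364 FPKM, overlapping the range of trb123. The rise against line 2 of ERF104 was not called (0.66, adjusted p = 0.125).

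**Figure D4:**
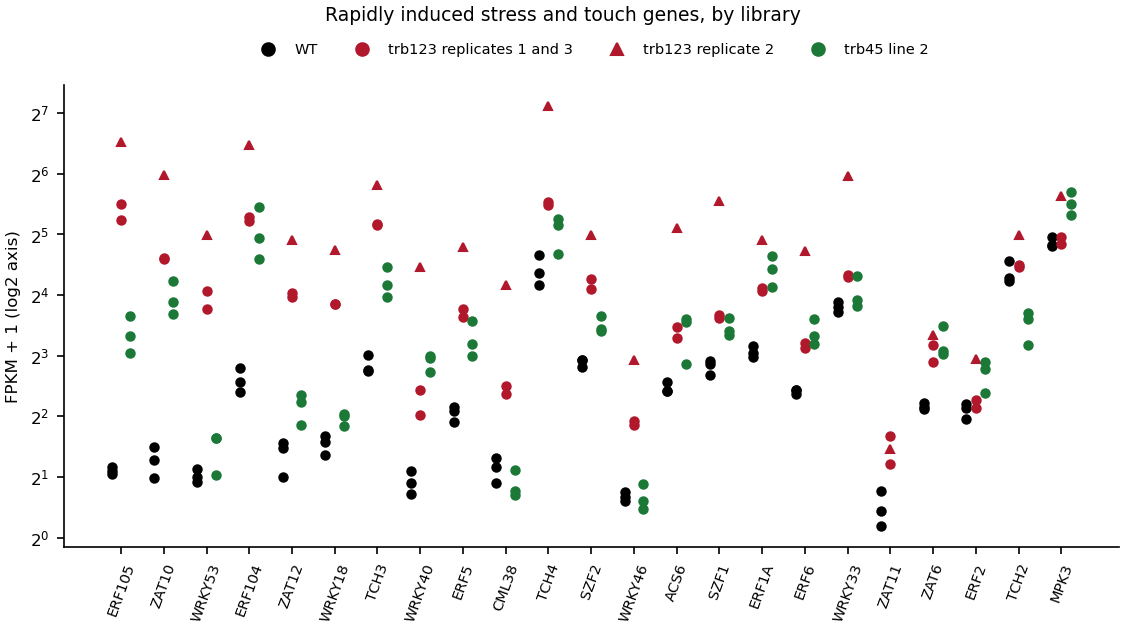
FPKM + 1 (vertical, log2 axis) of the 23 rapidly induced stress and touch genes in each library of WT (black), trb123 (red; triangle, replicate 2) and trb45 line 2 (green), ordered by the change in trb123. ERF105 has the largest change, and the triangles lie above the other trb123 points in the genes with the largest changes.

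Other defence and detoxification genes moved the same way in part. Of 45 WRKY factors 23 were called higher and 11 lower (51.1% and 24.4%, against 38.5% and 28.1% of all genes). Some WRKY factors, WRKY53 among them, also belong to the rapid stress list, so these counts overlap. Of 24 cysteine-rich receptor-like kinases 15 were called higher and 5 lower (62.5% and 20.8%). Disease resistance proteins of the NBS-LRR type did not lean up (33.8% higher and 36.4% lower of 77). Of the 24 kinases 6 reached 1 FPKM in trb123 alone and drop out of the test when a trb123 library is left out; without replicate 1, 2 or 3 of trb123 the kinases called higher were 9, and those called lower were 2, 4 and 2. Without WT replicate 1, 2 or 3 the lower calls were 3, 2 and 3. CRK6 was almost absent in WT (0, 0.03 and 0.03 FPKM) and stood at 5.01, 3.76 and 5.04 in trb123. CRK16 stood at 0.28, 0.49 and 0.28 FPKM in WT and 4.35, 4.2 and 6.51 in trb123. Under the split term the kinases called were 14 and none, the WRKY factors 14 and 3, and the transferases below 13 and 1; against line 2 they were 14 and 7 of 23, 15 and 6 of 44 and 20 and 7 of 46. Of 47 glutathione S-transferases, enzymes that conjugate toxic compounds, 27 were called higher and 5 lower. Of these 47, 4 reached 1 FPKM in trb123 alone. GSTF7 stood at 18.1, 24.3 and 15.4 FPKM in WT and 94.5, 80.4 and 100.05 in trb123, and GSTF14 at 0.67, 0.39 and 0.44 FPKM in WT and 6.46, 5.09 and 6.44 in trb123. GSTU8 fell, from 23.9, 26.1 and 22.4 FPKM in WT to 2.98, 2.98 and 2.83 in trb123. GSTU7 fell by 1.72 ± 0.07, a call lost with the split as a term (-0.15, adjusted p = 0.509). Among 11 tested salicylate and defence genes 6 were called higher and 1 lower: WRKY70, a regulator of salicylate responses, rose by 1.92 ± 0.23, PR2, a secreted glucanase, by 1.49 ± 0.18, SAG101 by 1.22 ± 0.11 and PAD3 by 0.50 ± 0.13, and PAD4 was called lower by a small amount (-0.24 ± 0.09, adjusted p = 0.0407), a call lost without any library other than WT replicate 2. PAD3 was not called with the split as a term (adjusted p = 0.423), where PAD4 turned positive (0.22, adjusted p = 0.483). Without trb123 replicate 3 the salicylate genes called higher were 3 of 10, with the split as a term higher and lower calls were 2 and 1 of 10, and against line 2 6 and 2 of 10. Of 13 heat shock genes 7 were called higher and 2 lower; the small chaperone genes HSP17.6A and HSP23.5 rose by 1.72 ± 0.18 and 1.39 ± 0.11, and the larger ones HSP70-4 and HSP70B fell by 0.71 ± 0.10 and 0.42 ± 0.10, falls that were not called with the split as a term (adjusted p = 0.345 and 0.577). For the heat shock genes higher and lower calls were 6 and 0 of 12 in that fit and 10 and 0 of 11 against line 2.

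Cell wall genes changed in both directions. Of 24 xyloglucan endotransglucosylases, which cut and rejoin the wall's xyloglucan, 11 were called higher and 3 lower, 9 of the 11 at least 2-fold. XTH24 stood at 51.2, 61.3 and 52.6 FPKM in WT and 352, 383 and 346 in trb123, and XTH15 at 12.1, 10.99 and 9.48 FPKM in WT and 69.0, 64.0 and 67.2 in trb123. XTH14 and XTH32, the 2 largest falls, fell by only 0.42 ± 0.14 and 0.34 ± 0.08; without WT replicate 2 a single gene of this family was called lower, and with the split as a term none was (10 higher). Against line 2 the family was divided, with 9 and 7 of 24 called higher and lower. Of 57 class III peroxidases 25 were called higher and 15 lower, 12 and 1 of them at least 2-fold. Their shares of 43.9% and 26.3% were near the 38.5% and 28.1% of all genes. AT2G41480 stood at 2.58, 2.91 and 3.63 FPKM in WT and 46.8, 40.6 and 47.4 in trb123, and AT4G36430 at 4.70, 7.69 and 6.35 FPKM in WT and 49.8, 38.0 and 45.4 in trb123. Peroxidases called higher and lower were 15 and 6 of 57 with the split as a term and 27 and 13 of 56 against line 2. Among 22 expansins, which loosen walls, 11 rose and 7 fell. EXPA17, known from roots, stood at 1.24, 1.17 and 1.1 FPKM in WT and 20.2, 18.1 and 20.3 in trb123. The expansin-like EXLA1 rose by 3.33 ± 0.12. EXPA8 went the other way and stood at 116, 107 and 99.96 FPKM in WT and 11.6, 19.1 and 10 in trb123, and EXPA1, known from leaves and guard cells, fell by 1.80 ± 0.11. Of 27 aquaporins, the water channels of cell and vacuole membranes, 7 were called higher and 12 lower; TIP2;3, a root channel, stood at 18.9, 15.4 and 15.9 FPKM in WT and 2.79, 3.97 and 3.12 in trb123, and PIP2;5 rose by 1.63 ± 0.08. Without trb123 replicate 1 or 3, or with median-ratio scaling, the aquaporins called higher were 4. In the fit with the split, expansins had 5 and 5 of 21 called higher and lower and aquaporins 4 and 8 of 27; against line 2 these were 11 and 5 of 21 and 8 and 14 of 27.

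Type 1 lipid transfer proteins, small secreted proteins of epidermis and cuticle, rose with one exception. LTP1 to LTP6 were called higher, each at least 2-fold, and LTP7 lower, against WT, against line 2 and with the split as a term. Beside LTP4, LTP3 stood at 10.01, 11.1 and 12.1 FPKM in WT and 109, 101 and 106 in trb123 (3.14 ± 0.08, adjusted p = 3.61e-09). LTP2, abundant in WT already, stood at 83.5, 74.8 and 80.0 FPKM in WT and 424, 439 and 443 in trb123, and LTP6 rose by 1.60 ± 0.13. LTP7 stood at 59.5, 73.5 and 64.4 FPKM in WT and 31.5, 24.4 and 26.2 in trb123 (-1.24 ± 0.11, adjusted p = 5.92e-06). In the wider superfamily of 66 tested genes 36 were called higher and 18 lower; AT5G55450 rose by 3.98 ± 0.18. The superfamily's calls were 26 and 13 of 66 with the split as a term and 33 and 17 of 66 against line 2. Of 20 wax and cutin enzymes 6 were called higher and 9 lower. GPAT6, an acyltransferase of cutin, fell the most, from 13.6, 13.7 and 13.8 to 3.45, 3.01 and 3.16 FPKM, and ATT1, KCS9 and CER6 fell by 0.81 ± 0.11, 0.60 ± 0.08 and 0.58 ± 0.09. BDG, CER2, HTH and LACS2 rose by 0.88 ± 0.09, 0.83 ± 0.09, 0.60 ± 0.09 and 0.53 ± 0.09. With the split as a term the calls of KCS9, CER6, HTH and LACS2 were lost (adjusted p = 0.153, 0.357, 0.136 and 0.196), leaving 2 and 3 of 20 higher and lower; against line 2 they were 6 and 6 of 21.

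Glucosinolates are the sulphur-rich defence compounds of the cabbage family, and myrosinases and specifier proteins turn them into toxic products when tissue is damaged. Of 12 tested genes of this breakdown 10 were called lower and none higher, 7 of them at least 2-fold (limma; median -1.08); with the split as a term 8 and none were called, and against line 2, 11 and none. TGG2, a myrosinase of guard cells and phloem idioblasts, stood at 345, 294 and 308 FPKM in WT and 0.59, 0.54 and 0.50 in trb123, a change of -7.68 ± 0.08, adjusted p = 2.84e-11. TGG1, the other shoot myrosinase, stood at 1264, 1213 and 1255 FPKM in WT and 149, 194 and 149 in trb123, a change of -2.93 ± 0.10, adjusted p = 2.52e-08. In line 2 TGG2 stood at 288, 182 and 281 and TGG1 at 1143, 983 and 1168. Every trb123 library of both genes lay far below the lowest WT library and the lowest line 2 library. The specifier genes ESP and NSP5 fell by 1.76 ± 0.12 and 2.14 ± 0.06; the call of NSP5 was lost with the split as a term (-0.34, adjusted p = 0.114). The summed level of the list was 2672 to 2787 FPKM in WT, 935 to 984 in trb123, 2488 to 3142 in line 1 and 2816 to 3068 in line 2. TGG1 and TGG2 carry most of the fall of this sum from WT to trb123. Both lie in the chromosome 5 window from 5 to 11 Mb that is described at the end. Guard cell markers, some of the cells in which myrosinases are made, summed to 50.7 to 53.3 FPKM in WT, 43 to 46.3 in line 1, 40.1 to 41.3 in line 2 and 30.7 to 31.9 in trb123, with 7 of 8 called lower; the part of cell numbers in the fall was not tested.

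Synthesis of glucosinolates did not move in 1 direction: of 45 tested genes 18 were called higher and 19 lower, 5 and 11 of them at least 2-fold. With the split as a term 5 and 14 of 45 were higher and lower, and against line 2 16 and 14 of 45. The neighbouring genes MAM1 and MAM3 encode enzymes that lengthen the methionine side chain, MAM3 making the longer chains. MAM1 stood at 114, 122 and 108 FPKM in WT and 18.2, 26.98 and 18.6 in trb123 (-2.40 ± 0.13, adjusted p = 3.81e-07). MAM3 stood at 18.5, 22.2 and 16.9 FPKM in WT and 91.5, 85.6 and 84.8 in trb123 (2.14 ± 0.10, adjusted p = 1.09e-07), so the neighbours moved in opposite directions without overlap of the groups. Both lie on chromosome 5 (TAIR10.1; MAM1 at chr5:7703041-7706973, MAM3 at chr5:7718118-7721866), as do SQP1 (chr5:8172300-8175525) and the adjacent TGG2 (chr5:9072708-9075777) and TGG1 (chr5:9079452-9082384). MYB29, a regulator of the aliphatic branch, stood at 17.79, 18.3 and 18.3 FPKM in WT and 2.75, 3.2 and 2.27 in trb123. In the indole branch the oxidase gene CYP81F4 stood at 159.7, 168 and 149 FPKM in WT and 17.82, 21.7 and 17.7 in trb123. The methyltransferase gene IGMT1, which acts after it, fell by 2.41 ± 0.14, whereas the regulator MYB51 rose by 1.08 ± 0.20. CYP79F2 and FMOGS-OX4 rose by 1.07 ± 0.10 and 1.1 ± 0.11, the first not called with the split as a term (adjusted p = 0.129). Other enzyme families of specialised metabolism had more lower than higher calls: of 142 cytochrome P450 genes 37 were called higher and 73 lower, and of 95 UDP-glycosyltransferases 24 and 44. In the fit with the split these were 16 and 44 of 140 and 12 and 21 of 95, and against line 2 29 and 69 of 141 and 27 and 31 of 94. CYP705A5, a gene of the thalianol cluster of root triterpenes, fell from 13.8, 13.6 and 15 to 0.37, 0.93 and 0.52 FPKM. UGT73B3 and UGT72E1 fell by 1.98 ± 0.09 and 1.98 ± 0.11 and UGT76B1, which glucosylates defence regulators, rose by 2.19 ± 0.09. Of 19 phenylpropanoid and flavonoid genes 4 were called higher and 8 lower: CHIL, a helper of flavonoid synthesis, stood at 54.2, 56.6 and 54.2 FPKM in WT and 13.7, 13.2 and 14.2 in trb123, and CHS, the pathway's first enzyme, rose by 0.81 ± 0.10, which was not called with the split as a term (adjusted p = 0.194). Without WT replicate 2, where 17 of the 19 were tested, 5 were called lower. With the split as a term 0 and 5 of 19 of this list were higher and lower, but against line 2 the balance was the opposite, 7 and 4 of 17.

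Genes of iron uptake were lower. Of 15 genes, all tested, 13 were called lower, 11 of them at least 2-fold, and 2 higher (limma; median -1.21). Both the fit with the split as a term and that against line 2 called 10 lower and 1 higher. The iron list summed to 511 to 622 FPKM in WT, 366 to 371 in trb123 and 505 to 579 in line 1. In line 2 the sum was 545, 569 and 340, with replicate 3 below every trb123 library. The subgroup Ib factors that switch on uptake in iron shortage fell together. BHLH39 stood at 19.6, 17.9 and 22.6 FPKM in WT and 3.32, 3.64 and 2.07 in trb123 (-2.41 ± 0.15, adjusted p = 8.69e-07). BHLH100 stood at 31.0, 40.9 and 45.9 FPKM in WT and 4.29, 7.88 and 5.28 in trb123, and BHLH101 at 21.1, 20.7 and 27.6 FPKM in WT and 1.85, 5.84 and 2.41 in trb123. No trb123 library of the 3 genes reached its lowest WT library. IMA2, a peptide that activates them, stood at 30.2, 39.3 and 43.7 FPKM in WT and 6.12, 5.37 and 4.57 in trb123. The members called higher were FER1 and OPT3. FER1, the ferritin that stores iron, stood at 31.2, 46.7 and 32.9 FPKM in WT and 92.3, 73.6 and 94.4 in trb123. OPT3, an iron transporter of the phloem, changed by 0.17 ± 0.06, a call that was lost when any library other than WT replicate 3 was left out and whose sign turned with the split as a term (-0.42, adjusted p = 0.206). Root markers, in whose cells iron is taken up, summed to 627 to 821 FPKM in WT, 429 to 490.5 in trb123, 648 to 846 in line 1 and 312 to 586 in line 2, and of 42 of them 34 were tested, 9 called higher and 13 lower; their part in the fall of the iron genes was not tested. Among 11 nitrate and phosphate genes 4 were called higher and 4 lower: NIA2, a nitrate reductase, stood at 309, 304 and 316 FPKM in WT and 664, 631 and 618 in trb123. NIR1, the nitrite reductase, rose by 0.79 ± 0.07, and the transporter gene NRT2.1 stood at 0.38, 0.57 and 0.20 FPKM in WT and 4.25, 2.72 and 3.3 in trb123. The phosphate genes PHT1;1 and SQD2 fell by 0.77 ± 0.11 and 0.60 ± 0.08. The call of PHT1;1 was lost with the split as a term (adjusted p = 0.156), and it shares 78.4% of its exon sequence with another gene at 97% identity or more, so its reads can be split. Higher and lower calls of the nitrate and phosphate genes were 3 and 2 of 11 with the split as a term and 4 and 4 of 11 against line 2.

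Green tissue genes were lower by small amounts. Of 48 nuclear photosynthesis genes 25 were called lower and 6 higher (median -0.25), with the split as a term 15 and 1, and against line 2, 37 and 3. LHCB2.1, an antenna protein of photosystem II, stood at 2961, 2839.5 and 3288 FPKM in WT and 1465, 1367 and 1461 in trb123, a change of -1.08 ± 0.08 (adjusted p = 2.79e-06). LHCB1.4, another antenna gene, stood at 1105, 871 and 1015 FPKM in WT and 441, 477 and 451 in trb123. LHCB4.3, a minor antenna gene, went the other way, from 9.31, 14.98 and 9.66 to 70.7, 58.2 and 74.5 FPKM (2.5 ± 0.16, adjusted p = 9.01e-07). Of 16 chlorophyll genes 9 were called lower and 2 higher; counted as higher and lower, 1 and 5 of 16 were called with the split as a term and 3 and 12 of 16 against line 2. Quantile normalization left 10 photosynthesis genes higher and 21 lower. GLK1 and GLK2, the factors that switch on chloroplast genes, stood lower: GLK1 at 157, 143 and 160.2 FPKM in WT and 58.9, 40.7 and 58.0 in trb123, and GLK2 at 203, 174 and 188 FPKM in WT and 75.5, 65.6 and 72.6 in trb123. GUN4, an activator of the magnesium chelatase, fell by 1.95 ± 0.13, and its call was lost with the split as a term (-0.42, adjusted p = 0.298). HEMA1, the first dedicated enzyme of tetrapyrrole synthesis, rose by 0.88 ± 0.10 and PORA by 1.03 ± 0.17; PORA was not called with the split as a term (adjusted p = 0.306). The 10 green tissue marker genes summed to 42524 to 49100.0 FPKM in WT and 37117 to 40229.9 in trb123, with 6 called lower and none higher. In line 1 they summed to 48713 to 53797 FPKM and in line 2 to 54028 to 63799.

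Genes of guard cells, trichomes and secondary walls were mostly lower, and those of the stomatal lineage were mixed. Of 8 guard cell genes 7 were called lower, ALMT12, an anion channel, by the largest amount (from 16.3, 16.7 and 14.1 to 5.59, 5.95 and 4.86 FPKM); GORK was not called (1.09, 0.45 and 0.80 in WT and 1.16, 0.97 and 1.17 in trb123). Of 18 stomatal lineage genes 8 were called lower and 3 higher. POLAR, a polarity protein of asymmetric divisions, stood at 6.64, 7.13 and 7.42 FPKM in WT and 0.50, 0.42 and 0.53 in trb123. SPCH, the factor that starts the lineage, stood at 18.1, 16.1 and 18.2 FPKM in WT and 5.81, 6.28 and 8.81 in trb123. MUTE, which ends those divisions, rose by 0.49 ± 0.13, which was not called with the split as a term (adjusted p = 0.843). With that term 6 lineage genes were called lower and none higher, and of the guard cell genes 3 and none. Against line 2 the lineage genes were 5 lower and 4 higher, and of 7 guard cell genes 4 were lower. Of 7 tested trichome regulators 6 were called lower and none higher (median -1.42). GL1, which starts trichomes, stood at 3.16, 2.77 and 2.47 FPKM in WT and 0.18, 0.49 and 0.18 in trb123, and GIS, a zinc finger factor of trichome formation, at 5.14, 6.22 and 5.55 FPKM in WT and 0.11, 0.61 and 0.21 in trb123. MYB23 and TRY fell by 1.42 ± 0.14 and 1.47 ± 0.18, and TTG1 and TTG2 by 0.51 ± 0.07 and 0.34 ± 0.12. The call of TRY was lost with the split as a term (adjusted p = 0.0755), and that of TTG2 without replicate 1 or 2 of WT or replicate 1 or 3 of trb123. EGL3 was not called, at 1.90, 1.15 and 1.81 FPKM in WT and 2.01, 2.18 and 1.93 in trb123. Without WT replicate 1 or 2 the trichome genes called lower were 3 of 5, since 2 genes reached 1 FPKM in WT alone and drop out of the test. Of 10 secondary wall genes 7 were called lower and none higher, LAC4, a laccase of lignin formation, from 33.5, 36.0 and 33.7 to 15.5, 20.2 and 16.2 FPKM. Trichome genes called higher and lower were 0 and 5 of 7 with the split as a term and 1 and 5 of 7 against line 2, and secondary wall genes 0 and 6 of 10 and 0 and 5 of 9. The lineage genes summed to 164 to 188.5 FPKM in WT and 120 to 127 in trb123. In line 1 this sum was 119 to 134 and in line 2 117 to 161, so both lines overlapped trb123. Xylem markers summed to 104 to 117 FPKM in WT, 66.1 to 73.5 in trb123 and 90.8 to 105 in line 2. In line 1 they summed to 104, 61.8 and 108, with replicate 2 below every trb123 library.

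Cold, drought and abscisic acid responsive genes were mostly lower: of 22 tested 14 were called lower, 10 at least 2-fold, and 4 higher (median -0.67); with the split as a term 9 and 1, and against line 2, 12 and 4. RAB18, a dehydrin, stood at 181, 119 and 163 FPKM in WT and 5.67, 9.22 and 6.60 in trb123 (-4.25 ± 0.18, adjusted p = 7.38e-08). P5CS1, an enzyme of proline synthesis, stood at 125, 104 and 118 FPKM in WT and 15.5, 26.99 and 14.4 in trb123. GOLS2, which makes galactinol, stood at 5.48, 4.41 and 4.92 FPKM in WT and 0.27, 0.30 and 0.20 in trb123. Line 2 lay between for RAB18, at 37.6, 37.9 and 34.7 FPKM. ERD14 fell by 1.88 ± 0.07 and was not called with the split as a term (-0.38, adjusted p = 0.24). CBF2, a cold regulator, was called higher, at 0.35, 0.13 and 0.60 FPKM in WT and 1.69, 8.65 and 1.81 in trb123, where replicate 2 again stood apart; the call was lost with the split as a term (adjusted p = 0.077). Without trb123 replicate 1 or 3 the genes called higher were 2.

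Hormone genes were mixed. Of 34 auxin genes 16 were called lower and 7 higher. PIN4, an auxin exporter, stood at 33.1, 31.4 and 33.9 FPKM in WT and 6.01, 8.85 and 7.37 in trb123, and the Aux/IAA repressor genes IAA7, IAA3 and IAA14 fell by 1.73 ± 0.15, 1.90 ± 0.17 and 1.59 ± 0.11; GH3.3, an enzyme that inactivates auxin, rose by 1.48 ± 0.08. Auxin genes called higher and lower were 2 and 9 of 34 with the split as a term and 6 and 20 of 33 against line 2. Of 20 gibberellin genes 9 were called higher and 3 lower: GA2OX2, which inactivates gibberellin, stood at 0.95, 0.67 and 0.91 FPKM in WT and 5.82, 7.67 and 6.33 in trb123. The DELLA repressor genes RGL1 and RGL2 rose by 1.48 ± 0.14 and 1.55 ± 0.18. Of the gibberellin-regulated peptides, GASA1 stood at 233, 239 and 197 FPKM in WT and 817, 803 and 846 in trb123 and GASA6 fell by 1.79 ± 0.16. For the gibberellin genes those fits gave 9 and 2 of 20 and 10 and 5 of 20.

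Of 25 jasmonate genes 9 were called higher and 11 lower. Of the 25, 4 reached 1 FPKM in trb123 alone and so entered the test through that group. Genes of synthesis fell: AOC2 stood at 41.3, 41.8 and 41.2 FPKM in WT and 2.06, 5.81 and 1.59 in trb123, AOS stood at 52.6, 45.2 and 50.3 FPKM in WT and 8.30, 13.0 and 6.83 in trb123, and AOC1 fell by 2.85 ± 0.21. VSP2, a storage protein of the jasmonate response, stood at 24.2, 20.5 and 21.8 FPKM in WT and 2.46, 2.2 and 2.37 in trb123. The signalling repressor gene JAZ1 rose, standing at 12.2, 12.2 and 11.8 FPKM in WT and 23.9, 44.3 and 21.0 in trb123, with replicate 2 the highest. Without trb123 replicate 1 or 3, where 21 of the 25 were tested, 5 were called higher. Fewer rose in the other fits too: higher and lower calls were 2 and 7 of 24 with the split as a term and 4 and 10 of 24 against line 2. Of 16 clock genes 8 were called lower and 2 higher: CDF1 fell by 1.49 ± 0.08, PRR9 by 1.37 ± 0.09 and CCA1 by 0.93 ± 0.07, whereas LHY, the close relative of CCA1, rose by 1.07 ± 0.11 and LUX by 0.57 ± 0.09. Clock genes called higher and lower were 3 and 6 of 16 with the split as a term and 3 and 9 of 16 against line 2.

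Developmental regulators outside the MADS-box family rose in part, and the flowering time list leaned down. The shares of all tested genes were 38.5% higher and 28.1% lower. Of 15 tested regulators of flower, carpel and ovule development 8 were called higher and 1 lower (53.3% and 6.67%, median 0.50). ALC, a factor of the fruit valve margin, stood at 6.17, 5.43 and 4.99 FPKM in WT and 49.0, 41.7 and 53.3 in trb123 (2.90 ± 0.11, adjusted p = 3.50e-08), and CRC, a YABBY factor of carpels and nectaries, was listed at 0 in WT and at 5.28, 4.37 and 5.78 in trb123. NUB and CUC1 rose by 1.46 ± 0.16 and 0.93 ± 0.15 and RPL fell by 0.74 ± 0.11, which was not called with the split as a term (adjusted p = 0.577). Without trb123 replicate 3, where 13 of the 15 were tested, 5 were called higher; median-ratio scaling gave 8 higher and 3 lower, and quantile normalization 7 and 5. With the split as a term 5 and 0 of 14 were higher and lower, and against line 2 7 and 2 of 14. Among 11 shoot meristem and KNOX genes 6 were called higher and 2 lower (54.55% and 18.2%). KNAT1 stood at 5.65, 5.87 and 5.57 FPKM in WT and 24.4, 17.5 and 23.4 in trb123. STM, which keeps the meristem undifferentiated, stood at 0.87, 1.04 and 1.37 FPKM in WT and 6.05, 4.53 and 6.39 in trb123. KNAT2 rose by 1.11 ± 0.14, and BLH1, a partner of KNOX proteins, fell by 1.05 ± 0.07. These genes had 5 and 1 of 11 higher and lower calls with the split as a term and 7 and 3 of 11 against line 2. Of 20 flowering time genes 7 were called higher and 10 lower. Outside the MADS-box genes of that list, TOE1, an AP2-like repressor of flowering, stood at 35.4, 33.5 and 33.8 FPKM in WT and 4.69, 6.48 and 3.71 in trb123. TEM1, another repressor, stood at 6.84, 7.5 and 8.43 FPKM in WT and 43.2, 74.0 and 42.9 in trb123; against line 2 it was not called (0.23, adjusted p = 0.347). SPL5, of the ageing pathway, rose by 1.66 ± 0.14 and MFT by 1.52 ± 0.20. Flowering time genes called higher and lower were 5 and 7 of 20 with the split as a term and 5 and 11 of 21 against line 2.

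Chromatin and cell division genes were called in both directions. Few Polycomb, DNA methylation and cell cycle genes changed at least 2-fold, whereas of 39 histone genes 2 rose and 6 fell at least 2-fold. Of 17 Polycomb genes 6 were called higher and 3 lower. Both shares, 35.3% and 17.65%, were below the 38.5% and 28.1% of all genes. With median-ratio or quantile scaling the Polycomb calls were 5 and 6, with the split as a term 3 and 0 of 17, and against line 2 6 and 1 of 17. EMF1, which acts with Polycomb complexes to keep flower genes silent, stood at 6.18, 5.50 and 7.22 FPKM in WT and 48.0, 46.3 and 45.9 in trb123 (2.72 ± 0.09, adjusted p = 2.35e-08) and at 5.65, 5.32 and 5.76 in line 2; RING1B rose by 0.85 ± 0.13. VRN1 and LHP1 fell by 0.61 ± 0.08 and 0.49 ± 0.11, and neither was called with the split as a term (adjusted p = 0.208 and 0.563). Of 14 DNA methylation genes 6 were called higher and 3 lower (42.9% and 21.4%, near the shares of all genes). ROS1, the demethylase that counters silencing, stood at 7.59, 5.86 and 7.85 FPKM in WT and 1.48, 1.52 and 1.57 in trb123 (limma, -1.67 ± 0.12, adjusted p = 1.40e-06). Without trb123 replicate 1 or 3 the methylation genes called higher were 3. Median-ratio scaling gave 3 higher and 3 lower, quantile normalization 4 and 5, the fit with the split 0 and 2 of 14 and the fit against line 2 6 and 3 of 14. Of 52 cell cycle genes 24 were called higher and 9 lower (median 0.24), but with the split as a term 5 and 2 (median 0.03), and against line 2, 20 and 3. PCNA1 and PCNA2, the replication clamp, rose by 1.05 ± 0.09 and 1.01 ± 0.09, calls lost with that term (adjusted p = 0.102 and 0.234). LGO, an inhibitor of division that promotes endoreduplication, stood at 94.0, 92.9 and 95.3 FPKM in WT and 20.9, 27.6 and 21.3 in trb123 (-1.98 ± 0.10, adjusted p = 2.23e-07), and KRP1 fell by 1.43 ± 0.08, a call lost with the split as a term (0.05, adjusted p = 0.856). Histone genes leaned down (6 of 39 higher, 20 lower; without trb123 replicate 1, 3 higher), AT2G28720 from 41.7, 48.3 and 36.5 to 4.34, 2.74 and 2.73 FPKM. Histone genes called higher and lower were 1 and 8 of 38 with the split as a term and 3 and 21 of 38 against line 2. Of 18 DNA damage genes 9 were called higher and 1 lower: GMI1, a repair protein, stood at 0.93, 0.87 and 0.82 FPKM in WT and 11.8, 9.75 and 9.97 in trb123 (2.61 ± 0.10, adjusted p = 5.16e-08). NAC044, a factor of the plant DNA damage checkpoint, stood at 0.19, 0.40 and 0.32 FPKM in WT and 5.94, 5.75 and 5.79 in trb123, and PARP2 rose by 1.05 ± 0.09. Under the split term 4 were called higher and none lower, and against line 2, 6 and 1. SMR7, a cell cycle inhibitor of that response, rose by 0.97 ± 0.15. Of the 18, 4 reached 1 FPKM in trb123 alone, and without replicate 1, 2 or 3 of trb123 the genes called higher were 4 of 13, 5 of 14 and 5 of 14.

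The other lists and families are given by their counts. Higher and lower calls were 3 and 3 of 13 leaf polarity genes, 1 and 1 of 7 telomere genes, and 4 and 1 of 9 senescence genes, for which they were 3 and 5 against line 2 and 2 and 1 with median-ratio scaling. With median-ratio or quantile scaling the leaf polarity genes had 3 and 5. In roots they were 6 and 4 of 14 root hair genes, none and 2 of 6 root meristem genes, and 3 and 7 of 14 genes of suberin and the Casparian strip. The balance of the root hair genes turned with median-ratio scaling (3 and 5) and quantile normalization (3 and 6), and 3 were higher without replicate 3 of WT or of trb123. Without WT replicate 2 or trb123 replicate 1 a single suberin gene was higher, and without WT replicate 3 or trb123 replicate 1 or 2 a single root meristem gene was lower. Of 12 anther and pollen genes 9 were at 0 or not listed, and of the 3 tested 1 was called lower. The floral MADS-box genes, of which 8 of 10 reached 1 FPKM in trb123 alone, had 9 and 1; without any one trb123 library 2 were tested and 1 was higher.

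Among further families, arabinogalactan proteins had 23 and 17 of 44, extensins 19 and 8 of 44, pectin methylesterases with their inhibitors 25 and 9 of 49, and defensins 8 and 1 of 11. The arabinogalactan proteins were called more often than all genes in both directions (52.3% and 38.6%, against 38.5% and 28.1%). The pectin methylesterases with their inhibitors leaned up (51.0% and 18.4%). Disease resistance proteins of the NBS-LRR type had 26 and 28 of 77, NAC factors 25 and 11 of 56, small auxin-induced SAUR proteins 18 and 20 of 45, small heat shock proteins of the HSP20 family 13 and 4 of 26, GDSL lipases 20 and 17 of 50, and germin-like proteins 3 and 5 of 10. Of the NAC factors 10 reached 1 FPKM in trb123 alone, and without replicate 1, 2 or 3 of trb123 those called higher were 12, 15 and 10. Of the SAUR proteins 6 reached 1 FPKM in trb123 alone and 4 in WT alone. Without trb123 replicate 3 the defensins called higher were 5 of 9, without WT replicate 2 or trb123 replicate 3 the germin-like proteins called lower were 3, and the balance of the GDSL lipases turned with median-ratio scaling (17 and 22). Wherever limma called none of a list in 1 direction against WT, the count at an unadjusted p under 0.05 was also 0.

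Seed transcripts were higher in trb123 and also in single trb45 libraries. Of 21 tested seed genes 16 were called higher and 2 lower, but with the split as a term 3 and none (median 1.91 and -0.08), and against line 2, 14 and 1. SESA3, a storage albumin, stood at 0, 1.67 and 0 FPKM in WT and 32.0, 14.3 and 36.0 in trb123, a change of 4.26 ± 0.41 (adjusted p = 1.24e-05). With the split as a term its change was -1.39, adjusted p = 0.589. The 16 seed marker genes summed to 11.8 to 54.0 FPKM in WT and 150 to 277 in trb123, but also to 568 in line 1 replicate 3 and 144 in line 2 replicate 2, against 7.88 to 20.4 in the other trb45 libraries. The split term rests on line 1 replicate 3, the library with the highest of these sums. For seed genes the fit with that term is therefore no separate check. Seed transcripts can also come from ungerminated seeds; their part in the result was not tested.

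**Figure D5:**
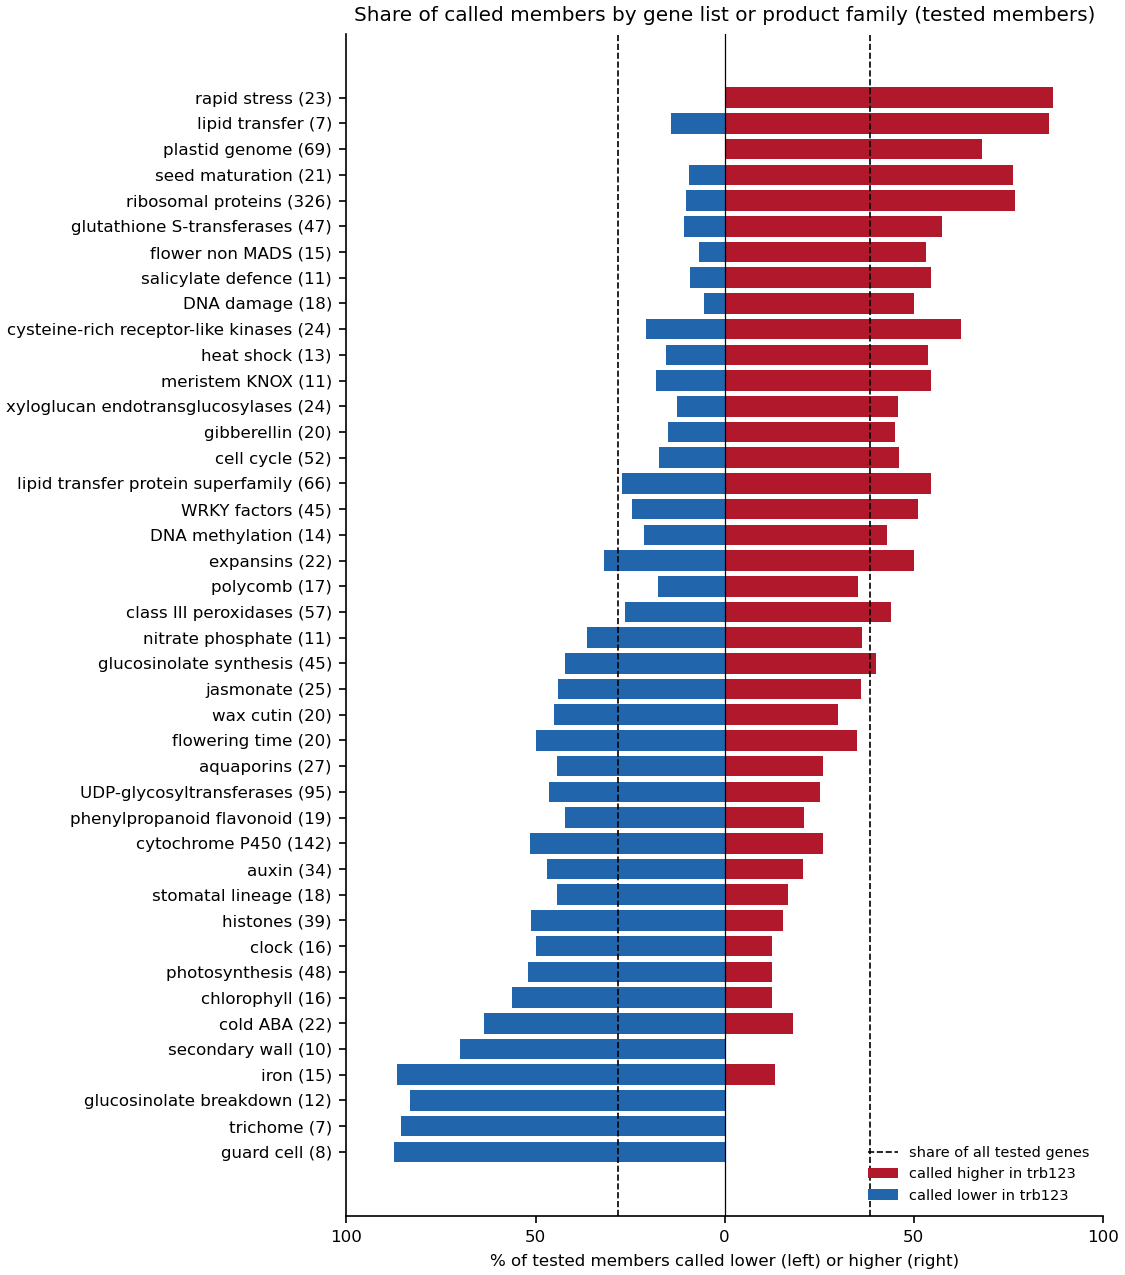
Share of tested members called higher (red, right) or lower (blue, left) in trb123 against WT, in %, for each gene list or product family described, with the number tested in brackets; dashed lines mark the shares over all tested genes, 38.5% and 28.1%. Rapid stress, lipid transfer and ribosomal protein genes lie at one end, and iron, glucosinolate breakdown, guard cell and trichome genes at the other.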

How the data were processed

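The deposited table holds FPKM that the authors computed per gene and library; the values of trb45 line 1 are written with decimal commas (other notation, same unit) and were read as numbers. Per the submitters' processing notes, STAR 2.7.1, DESeq2 and the build TAIR10 were used; their roles, the counting program, its use of strand and the rule for listing a gene are not given in the sources used here. Per the labels' protocols, libraries were stranded and made from polyA RNA. WT and trb123 blocks were joined by gene ID, and 183 repeated IDs, with equal values, were used once. Genes with at least 1 FPKM in at least 3 of the 6 libraries were tested with limma 3.58.1 (R 4.3.3, eBayes with trend) on log2(FPKM + 1), with Benjamini-Hochberg adjustment over all tested genes and calls at an adjusted p under 0.05. On simulated data for 17633 genes this test recovered 58.2%, 89.6% and 98.5% of genes changed by 0.5, 1 and 2 on the log2 scale, with 8 false calls. Only 200 genes were changed there, each with a WT mean above 2 on the log2 scale. The simulated noise was independent between libraries and held no split of the libraries. Its count of false calls therefore does not cover the real comparison, in which most genes were called. FPKM adds a limit at low values: the pseudocount of 1 understates changes of low genes, and a gene that reached 1 FPKM in a single group had to differ (332 tested genes in WT alone, 729 in trb123 alone). Gene lists (37, with 756 genes) and 22 families taken from product names in the RefSeq annotation of TAIR10.1 were chosen with earlier results of these data known. Of the 21036 IDs 20928 matched that annotation. Genes named were the TRB genes, the 12 largest rises and falls of at least 5 FPKM in a group, up to 4 of the largest rises and falls per list, 2 per family, and the members of short lists that were not called; AT5G09510 and AT4G12600 were added for their promoters, after their values were seen. Near-identical copies were searched with BLAST 2.17.0. Telomere-like motifs were searched in windows of 300 bases.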

Additional observations from a re-analysis of the deposited data

Results flagged for a closer look

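The 16 seed marker genes summed to 567.5 FPKM in replicate 3 of trb45 line 1, a library outside the comparison of trb123 with WT, against 11.8 to 54.0 FPKM in the WT libraries. It is the highest sum of the 12 libraries, above the 150 to 277 FPKM of trb123.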

How the results depend on the processing

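Of 12420 called genes, 2935 changed at least 2-fold (1756 higher, 1179 lower), and with the split of the libraries as a term 5223 genes were called (3146 higher, 2077 lower). Against trb45 line 2, 2197 of the called genes changed at least 2-fold (1309 higher, 888 lower). In the other settings the count against WT stayed between 8633, with a mean of at least 5 FPKM required, and 13404, with no filter on low values. Median-ratio scaling gave 6167 higher and 6182 lower genes, against 7176 and 5244 without it. Leaving out 1 library gave 10619 to 11521 called genes (5819 to 6920 higher, 4556 to 5204 lower) against WT, and 8433 to 10053 (4909 to 6188 higher, 3276 to 4091 lower) against line 2; without a trb123 library, genes at 1 FPKM in trb123 alone are no longer tested.

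Of the 179 genes named with a fit, 168 could be fitted with the split as a term. The sign turned for 6: TRB4 (0.29), KRP1 (0.048), AT3G41768 (0.58), PAD4 (0.22), OPT3 (-0.42) and SESA3 (-1.39). A further 28 lost their call there, 134 kept their direction and side of the threshold, and the cause was not tested. No named gene changed direction in any other setting; the calls of 33 rest on changes of less than 2-fold, and 6 were lost at an adjusted p of 0.01.

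With a replicate block the calls were 12142 against WT (7013 higher, 5129 lower) and 10100 against line 2. The numbers do not pair the libraries: deviations of same-numbered WT and trb123 libraries correlated at 0.067, -0.066 and -0.097 over 9869 genes. Under the block 2 named genes (PAD4 and OPT3) lost their call and TRB4 was called lower (adjusted p = 0.0188).

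Depth was inferred, not given, and genes near 1 FPKM rest on few fragments. The split of the libraries has no name in the labels and rests on 1 library of line 1, so group and split cannot be told apart for most genes.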

Other observations

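Several neighbouring genes changed together. On chromosome 4, 7 genes in a row from AT4G22475 to AT4G22517 (chr4:11844242-11857362, TAIR10.1), among them the lipid transfer genes described above, were lower by 1.70 to 5.39 on the log2 scale. The cysteine-rich kinase genes from CRK5 to CRK11 (chr4:12117491-12143858, 5 genes) were higher by 1.2 to 2.45, and 4 genes from CRK14 to EMB1290 by 1.03 to 2.14. Of the glutathione S-transferases, 4 genes from GSTF7 to GSTF4 (chr1:658578-666471) were higher by 1.00 to 2.21. A cluster of 4 serine carboxypeptidase-like genes from SCPL13 to SCPL9 (chr2:9778759-9802676) was lower by 1.28 to 2.91. Adjacent copies of such families are similar in sequence, and how reads were shared among them is not given in the sources used here.

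Some genes were seen in 1 group and at or near 0 in the other. With at least 2 FPKM in every library of a group and at most 0.1 FPKM in every library of the other, 22 genes were seen in WT alone and 66 in trb123 alone. Of the 22 in WT alone, 19 had at least 1 FPKM in every trb45 library; 6 of the 22 lie in the first 6 Mb of chromosome 2 and 9 between 5 and 11 Mb of chromosome 5, windows chosen after these positions were seen, which hold 349 and 912 tested genes. In the chromosome 5 window, where MAM1, SQP1, TGG1 and TGG2 also lie, 7.46% of tested genes were called and at least 2-fold lower, in the chromosome 2 window 8.88%, and elsewhere 6.25%. The 66 genes seen in trb123 alone were spread over the 5 chromosomes, with 10 to 16 on each, and 64 of them were not listed for a trb45 line.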
